A study of Homo sapiens with 4 samples.

Results

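RNA bound by J2, an antibody against double-stranded RNA (dsRNA), was compared between 1 library of NCI-H1944 cells given a pulse of an MPS1 inhibitor and 1 library of the same cells given solvent. These are 2 of the 4 libraries of the series, taken by their sample titles. The other 2 are the total RNA (Input) of both cultures. NCI-H1944 is an established human lung adenocarcinoma line, wild type per the labels. One group received BAY-1217389, the MPS1 inhibitor (MPS1i), at 100 nM for 48 h, was washed free of it and grown for a further 24 h, and the other had DMSO in its place. Lysate was split, 10% for Input and the remainder for the J2 immunoprecipitation, so J2 and Input of a group share their cells. The question set by the series is which transcripts able to form dsRNA differ after the pulse. With 1 library on each side, replicates cannot check any difference given here, and what is compared is libraries, not conditions.

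Double-stranded RNA forms where a transcript folds back on an inverted repeat, or where RNA from both strands of a locus pairs. Cells read long cytoplasmic dsRNA as a sign of a virus: the helicases RIG-I (gene DDX58) and MDA5 (IFIH1) signal through the mitochondrial adaptor MAVS to interferon genes, and secreted interferon acts through JAK kinases and STAT factors on a large set of target genes. The TTK gene encodes MPS1. This kinase works in the checkpoint that holds back the separation of chromosomes until spindle fibres have attached to all of them, and cells that divide without it distribute chromosomes unequally.

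The DMSO J2 library held 9793355 reads and the MPS1i J2 library 6697479 reads, counted in 3814162 stranded regions whose median length was 119 bp. In 49.9% of them neither library had a read. A read was seen in 1208576 regions for DMSO and 1176736 for MPS1i, and the DMSO library would show about 1028700 regions at the depth of the MPS1i library. Values below are log2 ratios of counts scaled to the library's sum, as CPM, MPS1i over DMSO, with an exact 95% counting interval in brackets; an interval covers counting error only. A gene, repeat or region counts as measured with 50 or more reads over both libraries. A call, higher or lower, needs a difference of 2-fold or more and an interval that excludes equal levels. A gene sum takes every region for which the annotation program HOMER gives that gene as the nearest, whichever strand the region is on, so neighbouring and antisense RNA is part of it. An own-strand sum takes only regions that overlap 1 GENCODE gene on the gene's strand.

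Genes of the interferon response were among the leading higher calls. Of the gene lists, those of mitosis, DNA replication and transposon silencing had the most genes called lower by number. These were 15 of 36, 10 of 29 and 9 of 23 measured, against 11.9% of all genes. Among shorter lists the shares were larger for ribosomal proteins, with 4 of 9 lower, and endothelium markers, with 2 of 4. The proximal promoters of the genes named here are shown because each holds a motif of a regulator known for its gene group. The first 6 genes below are interferon-response genes of a list of effectors whose gene sums were called higher, and the other 4 are replication and S phase genes called lower. Each sequence is RefSeq sequence of GRCh38.p14, 5' to 3' on the gene's strand. Each runs from 30 bases before the first match of a motif to 30 bases after the last, or to the last base before the annotated start. Capitals mark the motif on either strand. For the first 6 it is the core of the interferon-stimulated response element, GAAANNGAAA, known for its part in the interferon response, and for the other 4 a site of the S phase factors E2F, TTTCCCGC or TTTGGCGC.
IFIT5, chr10:89414493-89414567, plus strand: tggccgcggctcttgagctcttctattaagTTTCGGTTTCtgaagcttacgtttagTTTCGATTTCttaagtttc
SAMD9, chr7:93118076-93118145, minus strand: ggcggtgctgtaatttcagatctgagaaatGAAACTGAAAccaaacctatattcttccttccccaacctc
IFI44, chr1:78649741-78649788, plus strand: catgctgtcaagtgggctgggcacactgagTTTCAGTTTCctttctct
IFIT1, chr10:89392477-89392559, plus strand: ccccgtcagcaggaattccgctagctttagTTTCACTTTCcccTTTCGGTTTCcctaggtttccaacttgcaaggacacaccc
IFI44L, chr1:78620254-78620414, plus strand: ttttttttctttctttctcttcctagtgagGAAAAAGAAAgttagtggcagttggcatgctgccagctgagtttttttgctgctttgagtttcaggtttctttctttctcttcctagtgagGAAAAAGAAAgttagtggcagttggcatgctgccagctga
IFI6, chr1:27672246-27672378, minus strand: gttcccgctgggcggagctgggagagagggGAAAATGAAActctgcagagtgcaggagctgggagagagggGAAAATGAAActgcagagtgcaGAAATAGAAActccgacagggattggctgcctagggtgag
UHRF1, chr19:4909457-4909500, plus strand: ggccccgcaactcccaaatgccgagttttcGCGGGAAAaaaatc
POLE, chr12:132687343-132687390, minus strand: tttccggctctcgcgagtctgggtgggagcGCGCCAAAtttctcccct
GINS2, chr16:85688955-85689015, minus strand: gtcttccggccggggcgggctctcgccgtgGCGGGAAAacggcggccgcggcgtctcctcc
LIG1, chr19:48170421-48170488, minus strand: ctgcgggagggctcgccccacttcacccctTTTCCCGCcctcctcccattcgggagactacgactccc

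Promoters of chromosome 8 were left out of these counts. Of the 250 bases before the start, GAAANNGAAA was found on either strand in 3.07% of 27305 promoters and in 2.72% of those of measured genes. The share was 4.38% among 2943 matched genes called higher, 6.34% among those called higher by the gene sum and the own-strand sum, and 1.67% among 1440 called lower. Of the interferon effectors, 16 of 27 matched promoters (59.3%) held it. Within that list, calls of higher went to 14 of 16 genes with the motif, whose median log2 ratio was 2.71, and to 9 of 11 without it, whose median was 3.64. The E2F letters were in 1.96% of the 27305 promoters, 2.56% of those of measured genes, 1.39% of the higher, 4.03% of the lower and 10 of 25 (40.0%) of the DNA replication list. Matches of GAAANNGAAA overlapped an E2F match in 3 promoters. A match is a description of letters, not of binding. Of 18219 measured genes, which include those of chromosome 8, 12178 matched a promoter.

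Gene sums were measured for 18219 genes. Of these 4641 (25.5%) were called higher in MPS1i J2 and 2166 (11.9%) lower, with a median log2 ratio of 0.16 and quartiles of -0.53 and 1.03. Scaled by edgeR's trimmed mean of M-values (TMM), which moves each ratio by -0.16, the counts were 4075 higher and 2880 lower. Own-strand sums gave the other balance: of 11134 measured, 1776 (16.0%) were higher and 2200 (19.8%) lower. Calls in each gene list below are to be read against these shares, those of gene sums or of own-strand sums. The genes called higher drew a median of 29.2% of their MPS1i reads from regions in a gene on the same strand, while the genes called lower drew 85.6%. Among the higher ones 1344 had no region with 10 reads, so their sums add up thinly read regions. In bulk samples, fewer cells with a transcript and less of it per cell cannot be told apart. Where a gene called higher also had a measured own-strand sum, 932 of 1529 were higher by it and 19 lower. For the lower genes, 1009 of 1260 were lower by it and 4 higher.

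The 15 leading genes in each direction were ordered by the interval bound nearest to equal levels. First among the higher was SLC16A12-AS1, an antisense RNA gene next to the IFIT cluster of chromosome 10, with 18 reads in DMSO and 2484 in MPS1i (log2 ratio 7.66 [6.99, 8.41]). Of its MPS1i reads 92.4% were antisense to a gene, SLC16A12, and on the strand of IFIT5, past whose end they lie. IFIT5, a protein of the family that binds viral RNA ends, had 118 and 4398 reads (5.77 [5.50, 6.04]). Its own-strand sum was only 1 and 96 reads, and 50.1% of the MPS1i reads in its gene sum were antisense to another gene. LINC01537 had 0 and 107 reads, 52.2-fold higher when the 0 is set to a floor of 3 reads. Its interval began at a log2 ratio of 5.38. None of its regions reached 10 reads, and 72.9% of its MPS1i reads lay outside genes.

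Several other leading genes belong to the interferon response or lie beside it. NRIR, a long noncoding RNA next to the antiviral genes CMPK2 and RSAD2, had 27 and 1038 reads (5.81). FBXO39, an F-box gene beside XAF1, had 13 and 616 (6.11), and 97.6% of its MPS1i reads were on a gene's strand. OAS2, which makes the second messenger that switches on RNase L, had 63 and 1480 (5.10 [4.74, 5.49]), but 20 and 155 by its own-strand sum ([2.83, 4.25]). A region on the strand opposite OAS2 had 30 and 987 reads. SAMD9, an antiviral restriction factor, had 63 and 1329 (4.95), of which 78.6% in MPS1i lay outside genes. MX2, a GTPase that blocks the nuclear entry of viruses, had 6 and 211 (5.68), and the pseudogene GBP1P1 had 16 and 459 (5.39). All 6 were higher in Input too, from 3.61 for SAMD9 to 7.58 for MX2. The remaining leading genes are not known members of that response: WDR38 (1 and 124 reads), CTSLP8 (2 and 145), LINC01788 (9 and 322), SPATA31C1 (2 and 129), LOC101929268 (7 and 298) and KRT4 (0 and 65). KRT4 was 31.7-fold higher with the floor of 3 reads, and its interval began at 4.65. In SPATA31C1 95.3%, in LOC101929268 92.3% and in KRT4 86.2% of the MPS1i reads lay outside genes.

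The genes that led the lower calls drew most of their reads from regions in a gene on the region's strand. That gene need not be the named one. By own-strand sums 7 of the 15 were measured, and all 7 were lower. WDHD1, a protein of the replication fork, had 738 reads in DMSO and 90 in MPS1i (log2 ratio -2.49 [-2.82, -2.17]). CDC45, a part of the replicative helicase, had 208 and 22 (-2.69 [-3.40, -2.06]). NUDC, needed for dynein function in mitosis, had 535 and 65 (-2.49), and NEMF, a factor of ribosome quality control, 765 and 98 (-2.42). In Input these 4 were at -1.88, -2.21, -1.39 and -0.99. The phosphatase subunit PPP1R12C had 426 and 51 reads (-2.51) against -0.47 in Input, the polarity gene LLGL2 had 695 and 93 (-2.35) and MOB3A had 123 and 11 (-2.93). WFIKKN1 had 91 and 7 (-3.15), LOC105379183 543 and 68 (-2.45) and PCSK6-AS1 1282 and 188 (-2.22). The own-strand sum of PCSK6-AS1 was only 4 and 0 reads, and WFIKKN1 and LOC105379183 had none. Several leading names are small RNA genes inside introns of other genes, and their sums are those introns: MIR3187 (530 and 58 reads), MIR1910 (1018 and 142), MIR6854 (836 and 113), MIR4748 (212 and 23) and SNORD70 (277 and 33). No mature small RNA is measured by them.

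**Figure D1:**
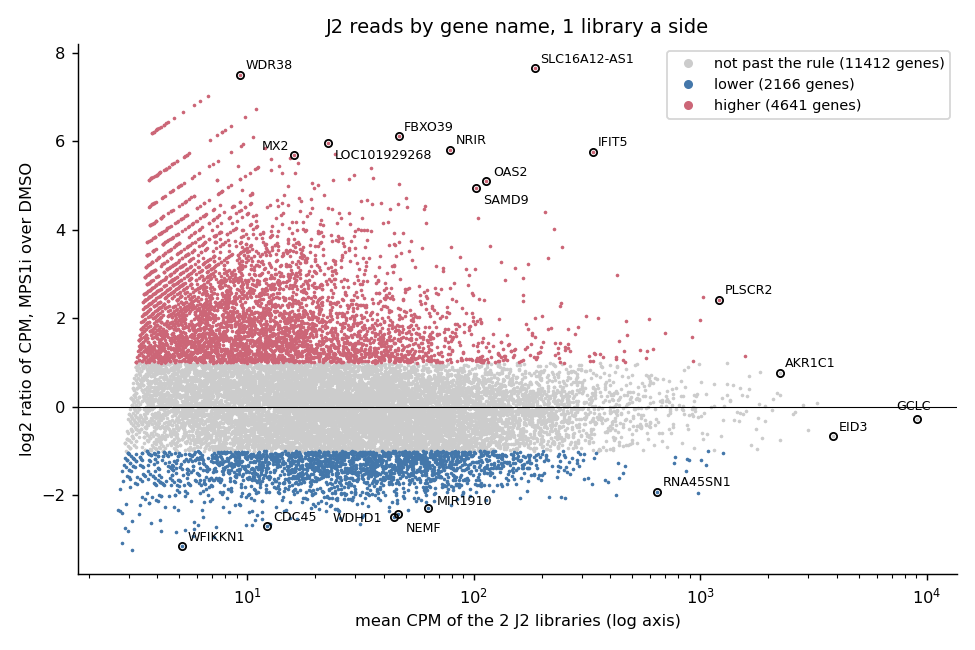
Each point is a gene with 50 or more J2 reads over both libraries and a read in each. The plot sets the gene's level against the log2 ratio of CPM, MPS1i over DMSO, with the called genes coloured. Called genes lie on both sides, 4641 higher and 2166 lower before genes with 0 reads in a library are left off, and the highest point is SLC16A12-AS1 at 7.66.

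Most of the most-read genes were not called. GCLC, the rate-limiting enzyme of glutathione synthesis, took the most reads of any gene, 97795 in DMSO and 54998 in MPS1i (-0.28 [-0.30, -0.27]). A single region accounted for most of them, chr6:53556981-53561017 on the minus strand, with 62041 and 38691 reads. EID3 had 46214 and 20065 (-0.66), EIF4B, which helps ribosomes to load on mRNA, 27650 and 11205 (-0.75), and the phosphodiesterase gene PDE4D 34637 and 16379 (-0.53). AKR1C1, an aldo-keto reductase, went the other way with 16230 and 18917 (0.77). These 5 did not reach the 2-fold rule. The ribosomal RNA precursor gene RNA45SN1 did: it had 9977 reads in DMSO and 1804 in MPS1i (-1.92 [-1.99, -1.85]), and -0.88 in Input. RNA5-8SN2, which encodes one of the smaller ribosomal RNAs, had 1469 and 279 (-1.85). For both names 100% of the MPS1i reads lay outside genes. A single region held 11779 reads of RNA45SN1 over both libraries, and another held 1748 of RNA5-8SN2. The own-strand sum of RNA5-8SN2 was 0 in both libraries. The other 4 measured rRNA genes were not called: RNA28SN1 was at -0.01, RNA28SN5 at 0.17, RNA5-8SN4 at 0.07 and RNA5S2 at 0.87. Such rRNA genes are near-identical copies and the split of reads between them is uncertain.

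Among the sensors and dsRNA-activated enzymes all 9 measured of 12 listed genes were called higher, and their median was 2.68 (log2). OAS2 is given above. OAS1 had 44 and 294 reads (3.29 [2.83, 3.78]), OAS3 289 and 1135 (2.52), IFIH1 327 and 2109 (3.24 [3.07, 3.41]) and DHX58, a helicase that tunes both RIG-I and MDA5, 7 and 94 (4.30). DDX58 was measured at 948 and 2201 (1.76) by its gene sum but at 3.49 by its own-strand sum, with 240 and 1840 reads; the gene sum holds further regions that HOMER names for it. EIF2AK2 (PKR), which stops translation upon binding dsRNA, was lowest at 1.26, with 841 and 1373 reads.

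The adaptors below the sensors were on both sides. Of 16 measured of 18 listed, 3 were higher and 3 lower, median 0.17, against 25.5% higher and 11.9% lower over all genes. By own-strand sums 2 of 13 were higher and 5 lower, median -0.11. TRIM25, a ubiquitin ligase of RIG-I, had 3114 and 5158 reads (1.28 [1.21, 1.34]), and NLRC5, which drives MHC class I genes, 297 and 437 (1.11). TMEM173 (STING) had 10 and 61 (3.16), with no MPS1i read on a gene's strand. MAVS had 599 and 130 (-1.66 [-1.94, -1.38]), TBK1, the kinase that phosphorylates IRF3, 1223 and 393 (-1.09), and IRF7, an interferon-inducible transcription factor, 165 and 42 (-1.43), although its own-strand sum was 0 in both. Of the 21 measured of 23 genes that bind, edit or limit dsRNA, 5 were higher and 2 lower, shares near the 25.5% and 11.9% of all genes, and the median was 0.09, which TMM scaling turns to -0.08. The mitochondrial exoribonuclease PNPT1 had 672 and 1427 (1.63), the PKR activator PRKRA 3484 and 5915 (1.31), although its own-strand sum was at 0.08, and ZC3HAV1 (ZAP) 1030 and 1416 (1.01). HNRNPC, which keeps cryptic Alu exons out of mRNA, had 2575 and 556 (-1.66 [-1.80, -1.53]). ADAR, the A-to-I editor of dsRNA, had 924 and 1068 (0.76) and was not called.

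Interferon genes themselves are short and were thinly read. IFNB1 had 10 reads in DMSO and 57 in MPS1i (3.06 [2.08, 4.19]), none of the MPS1i reads on a gene's strand, and IFNE 76 and 147 ([1.09, 1.92]); none of the other 7 measured of this list of interferons and receptors was called, and its 2 of 9 are a share near the 25.5% of all genes. Of the JAK, STAT and IRF genes 13 of 15 were measured, 7 higher and 4 lower, against 25.5% and 11.9% of all genes. Their median was 1.35. STAT2 had 29 and 100 (2.33), IRF1 188 and 519 (2.01; 0 and 3 by its own-strand sum) and BATF2 11 and 139 (4.21). STAT5B had 268 and 60 (-1.61), STAT3 901 and 307 (-1.01), IRF5 407 and 135 (-1.04; 8 and 7 by its own-strand sum) and TYK2, a kinase of the type I interferon receptor, 52 and 17 (-1.06). In the feedback list, 7 of 12 were higher and 0 lower (median 1.24), with HERC6 at 2.89, HERC5, the ligase of ISG15, at 2.86, its partner enzyme UBE2L6 at 2.60 and USP18, which removes ISG15, at 2.05.

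Interferon effectors had the highest median of the lists with over 4 measured genes. Of 32 measured of 36 listed, 27 were higher and 0 lower; the median was 3.41 against 0.16 over all genes. RSAD2 (viperin) had 7 and 220 reads (5.52 [4.46, 6.85]), IFIT1 51 and 775 (4.47), IFI44 181 and 2629 (4.41), IFI44L 31 and 410 (4.27), MX1 257 and 2851 (4.02) and IFI6 10 and 139 (4.35). SP100, a nuclear body protein, carried most reads of the list, 3272 and 7078 (1.66). BST2 (tetherin) at 0.04, IFI27 at 0.33 and IFI35 at 0.52 were not called. Guanylate binding proteins and apolipoproteins L were higher in 7 of 8 measured (median 2.05), with GBP1 at 2 and 57 reads (0 and 6 by its own-strand sum) and GBP3 at 14 and 88. GBP2 was at 0.28 by its gene sum. Of 7 interferon-linked PARPs 4 were higher: PARP9 had 3053 and 11731 (2.49 [2.43, 2.55]), PARP14 232 and 690 (2.12), PARP12 342 and 755 (1.69) and PARP8 64 and 120 (1.46).

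Antigen presentation genes were higher in 7 of 13 measured of 18 listed (median 2.12), and chemokine and NF-kB genes in 9 of 16 of 24 (median 1.52). In both lists 0 were lower. Over all genes 25.5% were higher and 11.9% lower. The immunoproteasome subunit PSMB9 had 23 and 183 reads (3.54), PDCD1LG2 (PD-L2) 16 and 119 (3.44), HLA-E 24 and 129 (2.97; 2 and 4 by its own-strand sum) and B2M 53 and 158 (2.12). CXCL11, which recruits T cells, had 10 and 161 (4.56), CXCL2 11 and 131 (4.12), CXCL1 56 and 276 (2.85) and CXCL8 57 and 247 (2.66). Few of these chemokine reads were in the genes themselves, as 5.59% of the MPS1i reads named for CXCL11, 3.82% of those for CXCL2 and 0 of those for CXCL1 were on a gene's strand; for CXCL8 it was 44.5%. DNA sensing genes went both ways, 4 higher and 2 lower of 10, against 25.5% and 11.9% of all genes. AIM2 had 40 and 215 (2.97), but 21 and 17 by its own-strand sum, and IFI16 79 and 311 (2.53). CGAS, the sensor of cytosolic DNA, had 1119 and 225 (-1.77 [-1.98, -1.56]).

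Of 22 measured p53 targets 11 were higher and 1 lower (median 1.00), against 25.5% and 11.9% of all genes. CDKN1A (p21), which arrests the cell cycle, had 42 and 114 reads (1.99), ZMAT3 250 and 589 (1.78), BTG2 83 and 207 (1.87) and MDM2, the ligase of p53, 9577 and 14642 (1.16 [1.12, 1.20]). The phosphatase PPM1D was lower with 276 and 82 (-1.20). By own-strand sums, 4 of 15 of these targets were higher, against 16.0% of all own-strand sums, and the median was 0.13. Stress and unfolded protein response genes had 4 higher and 1 lower of 14 (median 0.24), near the 25.5% and 11.9% of all genes, led by ATF3 with 80 and 281 (2.36). Epithelial-mesenchymal and matrix genes had 8 higher and 1 lower of 19 (median 0.69, and -0.10 by own-strand sums), with SNAI2 (Slug) at 8 and 93 reads, none of them on a gene's strand in MPS1i.

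Cell cycle genes were mostly on the lower side. Of 36 measured mitosis and checkpoint genes of 39 listed, 15 were lower and 2 higher, median -0.68. TPX2, which activates Aurora A, had 776 and 127 reads (-2.06 [-2.35, -1.79]), the checkpoint protein BUB1B 315 and 47 (-2.20), the chromokinesin KIF4A 658 and 134 (-1.75) and the condensin subunit NCAPD2 706 and 164 (-1.56). CENPE, a kinetochore motor, had 239 and 390 (1.25) and BUB3 290 and 399 (1.01), with own-strand sums at 0.41 and 0.28. TTK itself, the gene of the inhibited kinase, had 557 and 301 (-0.34 [-0.55, -0.13]) and was not called. Of 29 DNA replication genes 10 were lower and 1 higher, median -0.76. UHRF1, which maintains DNA methylation, had 124 and 13 (-2.71 [-3.65, -1.88]), the helicase subunit MCM5 1268 and 255 (-1.77), the polymerase POLE 547 and 128 (-1.55) GINS2 2264 and 706 (-1.13) and the ligase LIG1 129 and 33 (-1.42). The cyclin gene CCNE1 was the one higher, with 53 and 80 (1.14), of which 13.8% in MPS1i was on a gene's strand.

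Of genes that silence transposons more were lower than higher, with 9 lower and 1 higher of 23 (median -0.57). UHRF1 is in both. The demethylase KDM1A had 55 and 4 reads (-3.23 [-5.16, -1.80]), the chromatin remodeller HELLS 3892 and 1158 (-1.20), the PRC2 subunit SUZ12 505 and 113 (-1.61; not called at 4157 and 2259 by its own-strand sum, -0.33) and the HP1 protein CBX3 260 and 54 (-1.72); EED, also of PRC2, had 341 and 480 (1.04). KRAB zinc fingers, which direct silencing to transposons, had 3 lower and 0 higher of 16, against 11.9% lower over all genes. The median was -0.24, and 0.06 with a minimum of 20 reads. By own-strand sums 6 of 13 were lower and 0 higher, median -0.85, against 19.8% lower over all own-strand sums. NRF2 targets and xenobiotic enzymes had 3 lower and 0 higher of 23 (median -0.41), a share of lower calls near the 11.9% of all genes, with TXNRD1 at 12359 and 3090 (-1.45 [-1.51, -1.39]), ME1 at 2540 and 837 (-1.05) and the factor NFE2L2 (NRF2) itself at 311 and 97 (-1.13). Ribosomal protein genes were 4 lower and 1 higher of 9 (median -0.52), against 11.9% and 25.5% of all genes. Reference genes were 4 higher and 0 lower of 13, a share of higher calls near that 25.5%. Their median was 0.02, which TMM scaling turns to -0.15.

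Markers of other cell types were measured beside these lists. Of the 12 lung epithelium markers 8 were measured and 4 called higher. Their summed own-strand level was 95.8 CPM in DMSO and 88.8 in MPS1i, and the surfactant genes SFTPA1, SFTPB and SFTPC were at 0 on their own strand in both libraries. KRT8, an epithelial keratin, had 320 and 351 reads (0.68). Of 8 fibroblast markers 4 were measured and all 4 were called higher; the own-strand sum was 2.76 CPM in DMSO and 40.6 in MPS1i. It was almost all FAP, a membrane protease, with 23 and 260 own-strand reads and 36 and 646 in the gene sum (4.71), while COL1A1, COL3A1 and THY1 were at 0 in both. FAP lies past the end of IFIH1 on the same strand of chromosome 2. All 4 measured of 8 leukocyte markers were called higher by gene sums, such as LYZ with 9 and 57 reads, but the own-strand sum was 1.12 CPM in DMSO and 4.33 in MPS1i and MS4A1 was at 0. Endothelium markers went both ways, with 1 higher and 2 lower of 4. The part of other cells in the results was not tested.

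**Figure D2:**
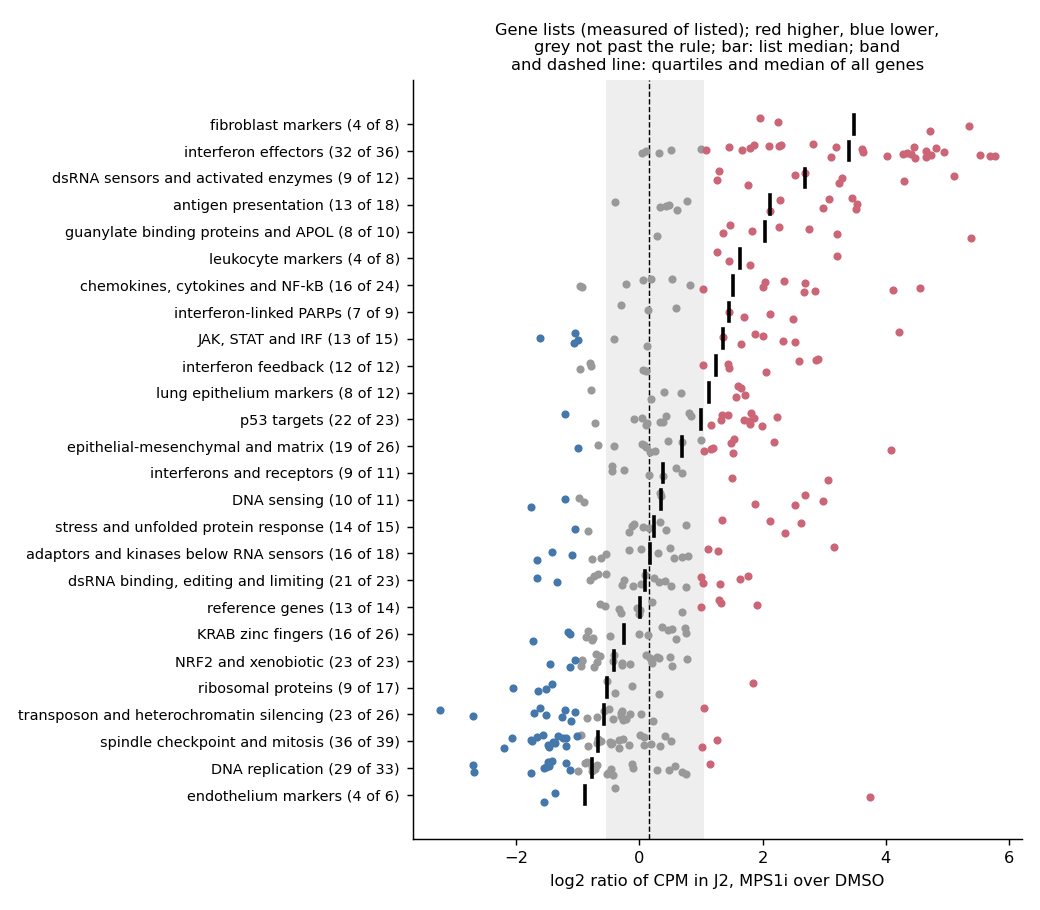
Each point is the log2 ratio of CPM of 1 measured gene in J2, MPS1i over DMSO, grouped by gene list, with the list's median marked. Interferon effectors and dsRNA sensors lie to the right with medians of 3.41 and 2.68, and mitosis and DNA replication genes to the left with -0.68 and -0.76.

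Total RNA was compared in the same way, in a separate table of 2310971 regions. The MPS1i Input library had a read in 484849 of them and the DMSO Input library in 940751, with 4844956 and 6381610 reads; the part of that gap in the Input ratios was not tested. In Input 3435 of 16958 measured genes (20.3%) were higher and 1536 (9.06%) lower. Of the genes called higher in J2 and measured in Input, 2521 of 3590 were higher in Input and 11 lower, and of those called lower in J2, 736 of 1994 were lower in Input and 6 higher. J2 and Input of a group come from the same cells, and these counts do not separate a change of J2 binding from a change of RNA level.

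A smaller share of J2 reads lay on genes' own strands in MPS1i. Regions in a gene on the gene's strand held 72.1% of the DMSO and 60.4% of the MPS1i J2 reads (log2 ratio -0.26). Regions antisense to a gene held 10.2% and 14.6% (0.52), and regions outside genes had 1731675 and 1673551 reads (0.50). Input showed the same signs at -0.18, 0.29 and 0.67. Among HOMER's classes, introns went from 65.3% to 56.3% of J2 reads (-0.21 [-0.22, -0.21]) and intergenic regions from 24.7% to 32.4% (0.39). Within introns the strand set the sign: sense regions were at -0.33 and antisense ones at 0.54. Intergenic regions with no gene on either strand were at 0.53, and those that HOMER calls intergenic but GENCODE places in a gene on that strand were at -0.02.

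Promoter-TSS regions, at gene starts, had a share of 1.97% of DMSO and 2.56% of MPS1i J2 reads (0.38 [0.37, 0.39]), and in Input the ratio was -0.17. That contrast rests on the mitochondrial genome, whose ribosomal RNA falls in this class: without it the class was at 0.36 in J2 and 0.32 in Input. Exon regions had a share of 0.535% and 0.710% (0.41), of which the antisense ones were at 0.55 and the sense ones at 0.03. Transcript ends were at 0.14 and 3' UTRs at 0.11, which TMM scaling turns to -0.02 and -0.05, and 5' UTRs were at 0.26. Measured by distance, sense regions over 100 bp from any exon went from 52.1% to 37.9% of reads (-0.46), and regions that overlap an exon from 5.42% to 6.74% (0.31). Those starting or ending within 2 bp of an exon were at 0.29.

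**Figure D3:**
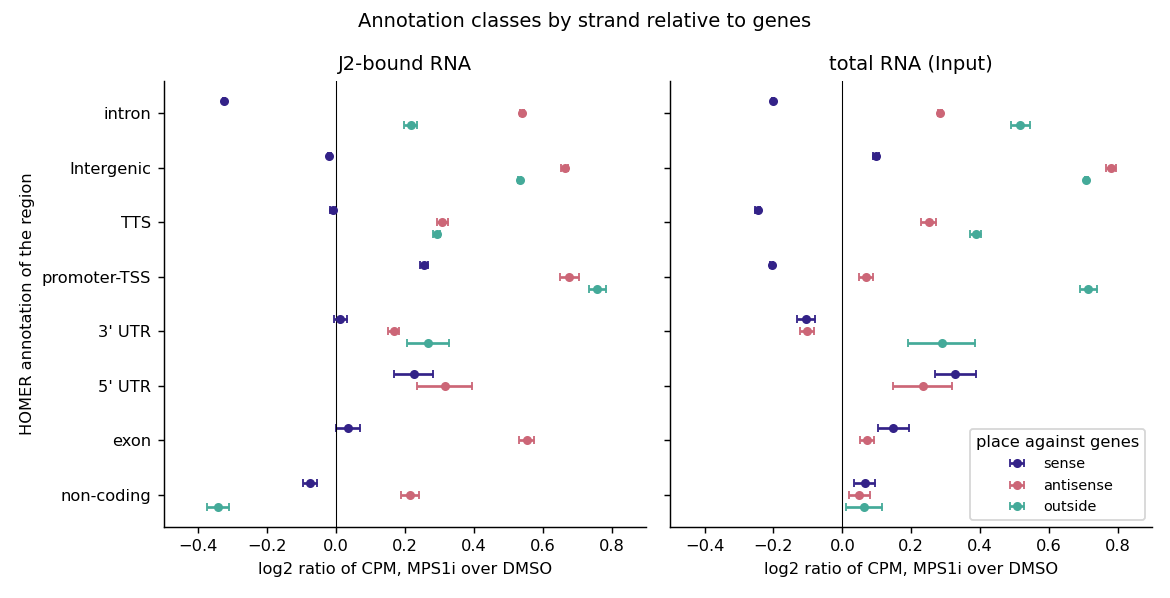
Points are log2 ratios of CPM, MPS1i over DMSO, for each HOMER class split by place against GENCODE genes (sense, antisense, outside), with 95% counting intervals; J2 is on the left and Input on the right, and classes with under 500 J2 reads in a place are not drawn. In J2 sense introns sit at -0.33 and antisense introns at 0.54.

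Thinly read regions had the highest ratios. Regions with 1 read over both libraries held 3.83% of DMSO and 6.29% of MPS1i reads (0.72), while those with 21 to 49 reads were at -0.31 and those with 1000 or more at 0.11. Split by place, single-read regions were at 1.71 antisense and 1.65 outside genes but at 0.07 in sense, and regions of 21 to 49 reads at 0.54, 0.37 and -0.61. Reads also differed where no gene lies. In 55 windows of 1 Mb with regions but no GENCODE gene of any kind, J2 had 885 reads in DMSO and 1320 in MPS1i (1.13 [1.00, 1.25]) and Input was at 1.30. The ratio was 1.74 on the plus strand and 0.79 on the minus strand. Of 17 such windows with 20 or more J2 reads 16 were above 0, 9 were 2-fold higher and 0 were 2-fold lower. The part of this spread-out signal in the higher calls of thinly read genes, antisense regions and repeats outside genes was not tested.

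Chromosomes with more coding genes per Mb tended to have lower ratios. The lowest were chromosome 16 at -0.53, and 22, 17 and 19 at -0.42 each, and the highest were 4 at 0.48, the mitochondrial genome at 0.46, X at 0.34 and 3 at 0.32. Across 23 nuclear chromosomes without Y, the ratio and the number of protein-coding genes per Mb had a Pearson r of -0.54 and a Spearman rho of -0.63; the points share both libraries. Among 1 Mb windows with 50 or more reads, the 261 with 0 coding genes had a median of 0.89, and those with over 20 had -0.20. Summed over all windows of each kind without a minimum of reads, 317 and 220, the ratios were 0.19 and -0.24.

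Of 36852 measured regions 4603 (12.5%) were higher and 10033 (27.2%) lower, the reverse of the balance among gene sums. Among 24356 sense regions 8862 were lower and 2127 higher, while among 5689 antisense ones 335 were lower and 1254 higher. Called regions bore 5667 gene names, of which 684 had regions in both directions. MDM2 had most higher regions, 20, followed by SP100 with 19 and IFIT5 with 17. Most lower ones were named for PDE4D with 80, beside 5 higher, then ABCC1 with 68 and PDE3A with 54. The transporter gene ABCC1 had 15239 and 2728 reads in all (-1.93), and PDE3A 13779 and 4085 (-1.21).

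The leading higher regions cluster at interferon loci. On chromosome 10 downstream of IFIT5, chr10:89434880-89439187 on the plus strand had 4 reads in DMSO and 657 in MPS1i (7.91 [6.54, 9.79]), and chr10:89445741-89447459, an L1PA6 element antisense to an intron of SLC16A12, had 1 and 280 (8.68). At the start of IFIT5, the promoter-TSS region chr10:89413784-89414507 had 2 and 356 (8.02), and its end lies within the promoter printed above. Its upstream neighbour chr10:89411882-89413766, which includes LTR12 and HERV9N-int sequence, had 8 and 716 (7.03). Both also lie on the strand of IFIT1, past its end. Another higher region was chr7:93092409-93093578 on the minus strand past SAMD9, with 0 and 138 (67.3-fold with the floor of 3 reads, interval from 5.75). Also higher were chr2:6848090-6848308 in CMPK2 on the minus strand, with 1 and 183 (8.06), and chr12:112978349-113011801, on the strand opposite OAS2, with 30 and 987 (5.59). The region chr9:32384625-32451734 on the minus strand, which lies past the end of DDX58, had 235 and 3791 (4.56) although HOMER names it for ACO1. Away from such loci, chr4:3386420-3416121 on the minus strand, antisense to RGS12, had 4 and 350 ([5.63, 8.88]). Leading lower regions were all intronic. The largest was chr17:37347127-37347524, an AluJo in ACACA, where 76 DMSO reads stood against 0. That is 17.3-fold lower with the floor of 3 reads, and the interval bound nearest to equal levels was -3.78. In YWHAE chr17:1371012-1371342 had 75 and 0.

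Both strands of a region are needed for it to pair with its own antisense RNA. Of the regions called higher, 67.9% had a read on the opposite strand in either library, against 78.4% of those called lower and 72.9% of all measured regions. Per 100 reads of its own strand the higher regions had 159 opposite reads in DMSO and 56.4 in MPS1i, and the lower ones 82.3 and 250. Over all measured regions the values were 85.5 and 80.4. The calls were made on the own-strand reads, which are the denominators here, so these ratios carry the call in them.

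The clusters past IFIT5 and SAMD9 led to a count, chosen after these values were seen, of reads up to 50 kb past the end of each protein-coding gene, on its strand and in no annotated gene of that strand. Of 6367 measured stretches 2480 (39.0%) were higher and 189 (2.97%) lower, and the median was 0.64. Where the gene's own-strand sum was called higher, 325 of 454 stretches (71.6%) were higher with a median of 1.92, and where it was lower, 233 of 970 (24.0%) were higher and 64 lower (median 0.20). Of interferon effectors 22 of 24 were higher, with a median of 4.86 downstream and 3.69 in the gene. Regions outside genes were at 0.50 in general, and each share is to be read against the 39.0%.

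IFIT1, IFIT5 and SAMD9, and others such as OAS2, MX1 and DDX58, had more MPS1i reads past their ends than on their own strand. IFI44 and IFIH1, with 751 and 2164 on their own strand, had fewer. Past IFIT1 there were 13 reads in DMSO and 1315 in MPS1i (7.21 [6.43, 8.12]) while the gene had 34 and 679 on its strand (4.87). Past IFIT5 there were 67 and 5009 (6.77), past SAMD9 12 and 841 (6.68), and past IFI44 9 and 392 (5.99). OAS2 had 15 and 439 (5.42) and IFIH1 14 and 389 (5.34). In the 5 kb steps past IFIT5 the first held 43 and 1814 reads, the third 12 and 1264 and the last, from 45 to 50 kb, 0 and 93. PLSCR1, a phospholipid scramblase, had 3559 and 11873 (2.29) past its end, reads that HOMER names for its neighbour PLSCR2. Of regions outside or antisense to genes, 239 of 2476 called higher (9.65%) lay within 50 kb past a gene called higher, against 187 of 8849 not called (2.11%) and 6 of 1171 called lower.

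**Figure D4:**
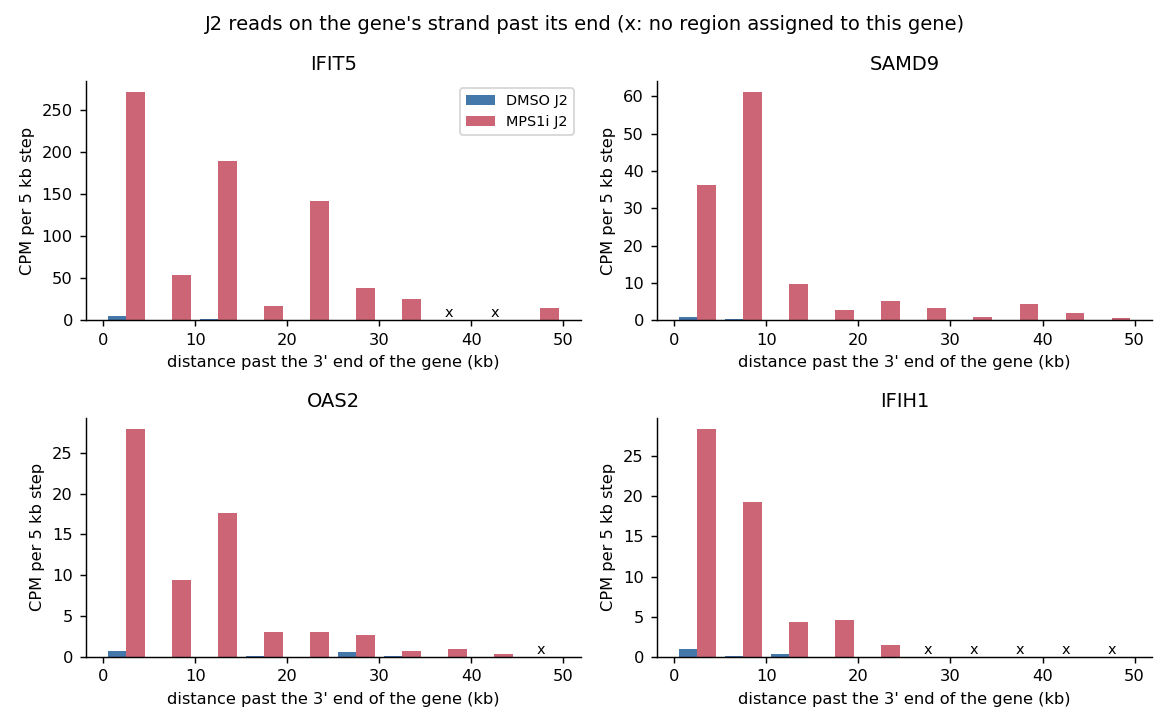
Bars are J2 CPM in 5 kb steps past the 3' end of IFIT5, SAMD9, OAS2 and IFIH1 on the gene's strand, DMSO and MPS1i side by side from a common zero, and x marks a step with no region assigned to the gene. In the first step past IFIT5 the counts behind the bars are 43 and 1814.

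Repeats on the region's strand differed by family. Regions that hold several repeats formed a class of their own and are in none of the family sums given here. That class held 19.6% of DMSO J2 reads, with a log2 ratio of 0.03. Alu, L1 or retroviral sequence within it is not counted under those names, so the shares below are not each family's whole share of J2 reads. Alu, the most common family and the main source of inverted repeats in human RNA, held 10.1% of DMSO and 7.96% of MPS1i J2 reads (-0.34 [-0.35, -0.34]), while in Input it was at 0.04. The strand split it: Alu in sense regions was at -0.56, antisense at 0.24 and outside genes at 0.15. L1, the autonomous LINE, held 7.94% and 9.10% (0.20; Input 0.45), with -0.27 in sense, 0.98 antisense and 0.71 outside. The endogenous retroviruses were at 0.44 for ERV1, 0.29 for ERVL, 0.23 for ERVL-MaLR and 0.09 for ERVK, the last of which TMM scaling turns to -0.07. In Input they were at 0.67, 0.41, 0.40 and 0.24, each above its J2 value. L2 at -0.08 and MIR at -0.02, both old elements, were near 0. Regions without a repeat were at 0.00. Centromeric satellites were at 0.68 (Input 0.82) and other satellites at -0.43 (Input 0.35). Sequence of tRNA was at 0.55 in J2 and -0.34 in Input. The scRNA family, which includes Y RNAs, was at -0.92 (Input -1.01), with 1279 reads in DMSO and 461 in MPS1i. Of these, 757 and 104 were in 1 region named for NEIL3.

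Within L1 the younger groups had the higher ratios. L1HS and L1PA together were at 0.55 and L1PB at 0.64, against 0.26 for L1MA and between -0.08 and 0.12 for L1MB, L1MC, L1MD and L1ME. In Input L1HS and L1PA were at 0.87, L1PB at 0.91 and L1MA at 0.47, and the other L1M groups between 0.09 and 0.18. In sense regions L1HS and L1PA were at 0.21 and all of the L1M groups were between -0.56 and -0.29. Outside genes the groups were alike, from 0.55 for L1ME to 0.84 for L1MD, apart from L1PB at 1.28. The Alu groups did not order by age: AluJ was at -0.37, AluS at -0.29 and AluY at -0.29, and each was below 0 in sense and above 0 elsewhere.

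**Figure D5:**
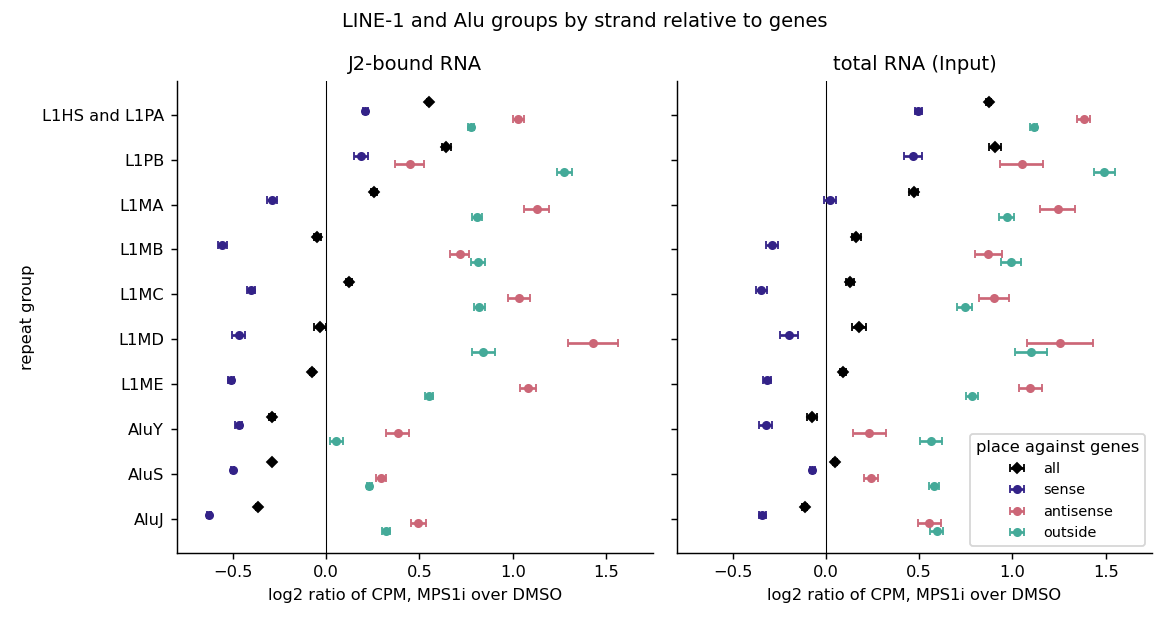
Points are log2 ratios of CPM, MPS1i over DMSO, with 95% counting intervals, for groups of LINE-1 and Alu elements, for all regions and split by place against genes; J2 is on the left and Input on the right. Sense points lie left of the antisense and outside points in every group, and the points for all regions run from 0.64 for L1PB to -0.37 for AluJ in J2.

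By subfamily 1402 were measured, of which 135 (9.63%) were higher and 89 (6.35%) lower; TMM scaling gave 88 and 115. Without simple repeats and low complexity sequence there were 954, with 109 higher and 21 lower and a median of 0.20. ERV1 supplied 62 of the higher ones out of 234 measured (median 0.54), against 8 of 127 for L1 and 0 of 49 for Alu. Internal parts of retroviral elements, which carry the genes, were higher in 38 of 121 (median 0.70), and their terminal repeats in 52 of 350 (median 0.43). The leading ones were LTR23-int with 7 reads in DMSO and 60 in MPS1i (3.65), HERV9N-int with 49 and 240 (2.84 [2.39, 3.31]), HERV9-int with 61 and 281 (2.75) and HERV3-int with 106 and 363 (2.32). L1M2a1 had 8 and 57 (3.38), against 0.02 in Input. The retroviral ones just named were at 2.45, 3.25, 2.63 and 1.55 in Input. The most-read HERV9N-int region, chr10:89410465-89410965, also lies before IFIT5, with 2 and 67 reads, and without it the subfamily was at 2.43. The longer region before IFIT5 named above holds several repeats and is not part of this sum.

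Single regions made part of these calls. L1M6B had 1027 and 2732 reads (1.96), of which 83.8% were in 1 region named for PLSCR2, and without it was at 0.65. Of the 109 higher subfamilies 68 stayed higher without their most-read region, and of the 21 lower ones 3 did. Among the lower were HY1, the repeat name of Y1 RNA, with 1049 and 223 (-1.69 [-1.90, -1.48]), U6 with 558 and 122 (-1.65), Charlie1b, a DNA transposon, with 5188 and 1254 ([-1.59, -1.41]) and PABL_B with 350 and 76 (-1.66). Each drew most of its reads from 1 region: 67.7% for HY1, 72.2% for U6, 55.4% for Charlie1b and 81.2% for PABL_B. Without that region none was called, at -0.75, -0.38, -0.73 and 0.48.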

How the data were processed

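The authors deposited raw read counts per stranded genomic region of GRCh38/hg38, in 1 table for the J2 immunoprecipitation and 1 for Input, each with HOMER's annotation class, nearest gene and repeat. The submitters' processing notes name HOMER, featureCounts, STAR and the trimmers cutadapt, Trimmomatic and Trim Galore, without versions or order. Libraries were made with a SMARTer stranded total RNA kit, per the labels' protocols. How regions were called and how multi-mapped or duplicate reads were treated is not given in the sources used here; reads of near-identical repeats and genes, and amplified copies of 1 molecule, can be part of any count. Region starts count from 0 in the files and are printed here 1-based.

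Each library was scaled to its summed count. Ratios have exact Clopper-Pearson 95% intervals, which cover counting error only; a count of 0 was set to a floor of 3 reads per library. Replicates are lacking, so no test between groups was made. A gene, region or repeat was called at 50 or more reads over both libraries, 2-fold or more and an interval excluding equal levels. This rule was tried on simulated gene counts that hold counting error only. Variation between replicate libraries was not simulated, so false calls from it were not measured. Strand and place were taken from the GENCODE annotation, and promoter sequences from RefSeq for GRCh38.p14. Members, gene lists and rules were chosen with earlier results of these data known. The named items are the 15 genes, 10 repeat subfamilies and 10 regions (at most 2 per gene) in each direction with the interval bound farthest from equal levels. Simple repeats were counted and not named. Of each gene list, up to 4 members called in each direction by that bound and the member with most reads were named, with the most-read genes and regions; other names were chosen after their values were seen. Python 3.11.15, NumPy 2.4.6, pandas 2.3.3, SciPy 1.17.1, matplotlib 3.10.9, R 4.3.3, edgeR 4.0.16 and DESeq2 1.42.0 were used, the last pair for scaling factors only. Results of a few list members are not reported here.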

Additional observations from a re-analysis of the deposited data

Results flagged for a closer look

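Of the genes measured in J2 and in Input, 17 were called in opposite directions in the J2 and the Input libraries. The difference was not tested, since each group holds 1 library. RPPH1, the RNA of ribonuclease P, had 21 reads in DMSO and 75 in MPS1i J2 (log2 ratio 2.38), against 1041 and 374 in Input (-1.08). MED23, a subunit of the Mediator complex, had 46 and 123 in J2 (1.97) against 89 and 33 in Input (-1.03). FASTKD2, a mitochondrial RNA-binding protein, had 20 and 44 in J2 (1.69) against 64 and 11 in Input (-2.14). HEATR6 had 23 and 182 in J2 (3.53), of which 178 reads over both libraries were in 1 region, against 42 and 10 in Input (-1.67). In the other direction, MRPL52, a mitochondrial ribosomal protein gene, had 59 and 12 in J2 (-1.75) against 29 and 46 in Input (1.06), and HSF2BP had 52 and 13 (-1.45) against 23 and 50 (1.52). These 6 were chosen after their values were seen.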

How the results depend on the processing

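No paired analysis was possible because each group holds 1 library, and no library could be left out. Scaling by TMM or DESeq2 moved every log2 ratio by -0.16, and leaving the mitochondrial genome and the 100 most-read regions out of the sums by 0.01. Genes called higher (4641) came to 8342 with no minimum, 1707 with a minimum of 200 reads, 2389 without intergenic regions, 1776 by own-strand sums and 1978 with each region counted once per library. Genes called lower (2166) came to 4152 at 1.5-fold and 981 with each region counted once. The following settings were chosen after seeing the data. With only regions in a gene on their own strand 1785 genes were higher and 3256 lower; scaled to the reads of those regions, 1294 were lower. Regions called higher (4603) came to 55073 with no minimum, 13168 with a minimum of 20, 821 with 200 and 7409 at 1.5-fold, and those called lower (10033) to 51955, 28328 and 1265 under these minimums. Subfamilies called higher (135) came to 88 by TMM and by DESeq2, 318 with no minimum, 210 and 57 with minimums of 20 and 200, 318 at 1.5-fold, 61 with repeats on either strand, 46 with each region counted once and 233 when scaled to own-strand reads. Those called lower (89) came to 205, 157 and 19 under the minimums, 170 at 1.5-fold, 49 with either strand, 29 without the most-read region and 0 with each region counted once. Downstream stretches called higher (2480) came to 5684, 4129 and 662 under the minimums. Those called lower (189) came to 293 by TMM and by DESeq2, 318 with no minimum, 86 with a minimum of 200, 479 at 1.5-fold and 103 scaled to own-strand reads.

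Sign changes by TMM and by DESeq2 were of ratios near 0. The annotation classes were 3' UTR at -0.055 and -0.052 and TTS at -0.023 and -0.020. Repeat families were ERVK at -0.072 and -0.069, LTR? at -0.046 and -0.043, RTE-BovB at -0.014 and -0.011, SVA at -0.095 and -0.092, hAT-Tip100 at -0.019 and -0.016, and regions of several repeats at -0.13 and -0.13. Chromosomes were 10 at -0.0043 and -0.0015, 11 at -0.14 and -0.13, 18 at -0.13 and -0.13, 2 at -0.086 and -0.083, 5 at -0.15 and -0.15 (and -0.0013 without the 100 most-read regions), 6 at -0.0075 and -0.0046, and 9 at -0.098 and -0.096. List medians were dsRNA binding at -0.076 and -0.073 and reference genes at -0.15 and -0.14. With each region counted once the sign changed for non-coding (0.16), 5S-Deu-L2 (0.014), CR1 (0.055), PiggyBac (0.046), RTE-X (0.031), Satellite (0.079), hAT-Ac (-0.079) and tRNA (-0.21), and for the medians of adaptors (-0.37), dsRNA binding (-0.26), interferons and receptors (-0.070) and stress (-0.040). By own-strand sums medians turned to -0.11 for adaptors, -0.17 for dsRNA binding, -0.71 for interferons and receptors, -0.10 for the epithelial-mesenchymal list, -0.11 for reference genes, -0.020 for lung epithelium and 2.92 for endothelium. With only own-strand regions they were -0.18 for adaptors, -0.0096 for dsRNA binding, -0.37 for interferons and receptors, -0.091 for stress, -0.39 for reference genes, -0.30 for lung epithelium and 0.44 for endothelium. Without intergenic regions adaptors were at -0.12, interferons and receptors at -0.25 and reference genes at -0.046. A minimum of 200 gave -0.16 for adaptors and -0.055 for lung epithelium, and a minimum of 20 or none 0.77 for endothelium and, for KRAB zinc fingers, 0.062 and 0.30. KRAB was at 0.011 scaled to own-strand reads, and dsRNA binding at -0.11 without each gene's most-read region. The cause of these changes was not tested. Of the 15 leading genes in each direction, 0 were called in the other direction under any of these settings. All that remained measured kept their call except lower ones with each region counted once, where 7 of 11 did. Some settings left many unmeasured. By own-strand sums only 8 of the 15 higher and 7 of the 15 lower were measured, and without intergenic regions 9 of the 15 higher.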
